A study of Mus musculus with 12 samples.

Results

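3B3-3l is a male mouse embryonic stem cell (mESC) line derived from J1. It has no functional endogenous Dnmt3a or Dnmt3b (Dnmt3a-/-, Dnmt3b-/-) and expresses Dnmt3b from a transgene driven by the CAG promoter, which is active in both media. A Flag-tagged Dnmt3l, also under CAG, was added with a blasticidin resistance gene, and cells with stable expression were selected by the drug. The 6 libraries described here are the 3 of this line in 2i and the 3 in serum, of 12 in all; the other 6 are of wild-type J1 in the same media. In 2i the cells received 1 uM of PD0325901, an inhibitor of MEK, and 3 uM of CHIR99021, an inhibitor of GSK3, in a serum-free N2B27 base. The labels give LIF at 1000 U/ml in 2i and 500 U/ml in serum, whereas the study's methods give the same LIF in both, so that medium, inhibitors and perhaps LIF go together. 3B3-3l grew on gelatin in serum, and J1 on feeder cells in serum. The study used the line to ask what 2i does to cells in which DNA methylation is maintained. Every comparison below is of 2i with serum in 3B3-3l unless J1 is named.

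MEK inhibition blocks the kinase cascade that leads from FGF receptors to ERK, whose activity readies mESCs for lineage commitment. GSK3 inhibition stabilises beta-catenin and relieves the repressor Tcf7l1, and LIF acts through Stat3. Together they hold mESCs in a naive state that resembles the early epiblast. Wild-type cells in 2i lower the de novo DNA methyltransferases Dnmt3a and Dnmt3b and their cofactor Dnmt3l, and lose much of their DNA methylation. DNA methylation silences a set of germline genes in somatic and pluripotent cells and marks 1 parental copy of imprinted genes, and it restricts where polycomb complexes bind.

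The libraries of 3B3-3l held 38145355 to 44514956 estimated counts. Levels are given as CPM (counts in 1000000, with library sizes scaled by edgeR), and 3 counts in a library correspond to at most 0.0813 CPM, which covers counting error only. The label of the cells held against 10 ES cell markers, whose summed level was 6589.9 to 6849.7 CPM in 2i and 5039 to 5589 CPM in serum, with none at 0. The members of this set were divided, with means of Utf1 and Sox2 lower in 2i and those of Esrrb and Nanog higher. Summed levels of 20 fibroblast or feeder markers were 34.2 to 36.2 CPM in 2i and 90.03 to 103 CPM in serum. Most of these markers had a lower mean in 2i, but Ddr2 was higher (4.43 CPM in serum, 13.6 CPM in 2i) and Pdgfrb near level (7.39 and 7.33 CPM). In 2i, 4 of these (Dcn, Lum, Twist2 and Lox) had no count in any library and 11 had at most 3 counts in each, whereas in serum none was at 0 although the cells grew on gelatin. The 10 primitive endoderm markers summed to 13.7 to 14.9 CPM in 2i and 27.7 to 28.9 CPM in serum, and the 8 trophoblast markers to 29.8 to 31.2 and 16.6 to 17.6 CPM. The trophoblast sum followed Eomes, with means of 3.55 CPM in serum and 18.6 CPM in 2i, and its members were divided. The means of 1600029D21Rik and Cdx2 were also higher in 2i, those of Krt7 (4.71 to 1.37 CPM), Gata3, Hand1 and Plac1 were lower, and Elf5 was near level. The sums of all these marker sets moved with the medium, and their part in the results was not tested. In bulk RNA fewer cells of a type and less RNA per cell cannot be told apart.

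Genes of chromosome 8 were shifted as a group in 3B3-3l. The median log2 fold change of its 854 genes tested was 0.19, and 62.1% of them were above 0. The medians of the chromosomes other than 6 and 8 ran from -0.080 to 0.091, and chromosome 8 in J1 stood at -0.046. Measured against the mean of all 12 libraries, the median of chromosome 8 was 0.052 to 0.071 in the 2i libraries and -0.11 to -0.069 in the serum libraries of 3B3-3l. In J1 the shifted chromosome was 6, with a median of 0.44 over 769 genes against 0.030 in 3B3-3l, and all J1 2i libraries lay 0.30 to 0.34 above the mean of the 12 libraries. The median difference between the lines was -0.44 on chromosome 6 and 0.23 on chromosome 8. Among genes that averaged 10 CPM or more, the 3B3-3l median of chromosome 8 was 0.29 against 0.00062 to 0.12 on the chromosomes other than 6, which stood at 0.15.

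**Figure D1:**
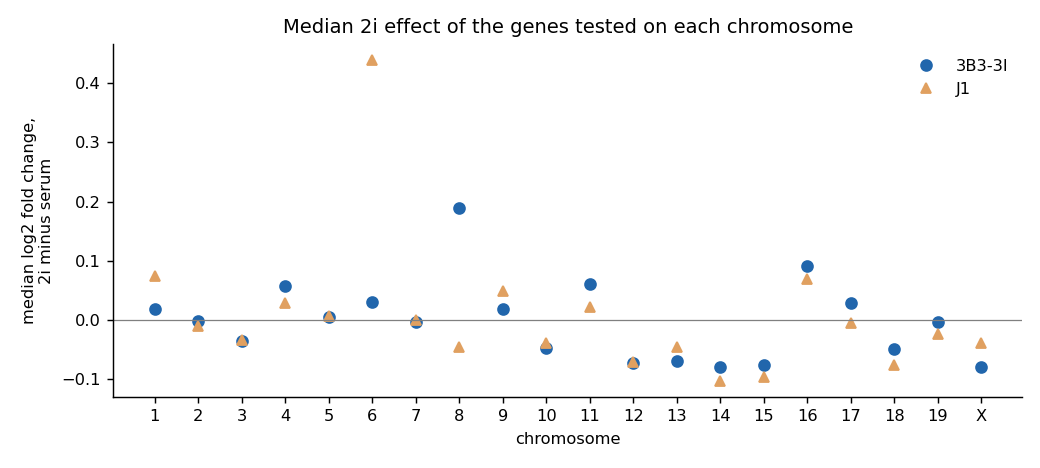
Median log2 fold change of 2i against serum (y axis) over the genes tested on each chromosome (x axis), in 3B3-3l (circles) and J1 (triangles). In 3B3-3l chromosome 8 stood highest at 0.19, and in J1 chromosome 6 stood at 0.44.

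Dnmt3b expression was kept in 2i. Dnmt3b (chromosome 2, 153649411 to 153687730, ENSMUSG00000027478) stood at 927, 879.9 and 866 CPM in serum and 914, 936 and 935 CPM in 2i. The groups overlapped and the change was not called (0.059 ± 0.052, edgeR adjusted p = 0.332). In J1 it fell, and the difference between the lines was 3.29 ± 0.076, edgeR adjusted p = 4.32e-13. Transcript Dnmt3b-009 held 75.6% to 76.1% of the gene's estimated reads in 2i and 72.2% to 77% in serum, so that the same transcript carried most reads in both media.

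Dnmt3l (chromosome 10, 78042287 to 78063622, ENSMUSG00000000730) was kept only in part. Its libraries held 511, 496 and 448 CPM in serum and 285, 289.99 and 294 CPM in 2i, with all 2i libraries below all serum libraries (-0.74 ± 0.059, edgeR adjusted p = 1.37e-08). The loss was unequal between its transcripts. Dnmt3l-002 held 14114, 14287 and 12479 estimated counts in serum and 6999, 7806 and 7069.8 in 2i, and Dnmt3l-003 held 5302, 6271 and 4734 and 4822, 4665 and 4311. Dnmt3l-002 thus held 68.9% to 72.1% of the gene's reads in serum and 59% to 62.4% in 2i, without overlap. Reads of the endogenous gene and of the transgene cannot be told apart in these tables. The 2i effect was smaller than in J1 (difference 1.69 ± 0.084, edgeR adjusted p = 2.42e-09).

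Residual reads of the disrupted Dnmt3a (chromosome 12, 3801559 to 3914443, ENSMUSG00000020661) fell in 2i as the wild-type gene did. They stood at 34.3, 32.6 and 29.4 CPM in serum and 4.93, 5.07 and 4 CPM in 2i (-2.78 ± 0.087, edgeR adjusted p = 1.77e-13). The fall was larger than in J1 (difference -0.77 ± 0.11, edgeR adjusted p = 7.99e-05), although with offsets for transcript length this difference was -0.14 and not called.

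Maintenance genes rose. Dnmt1, which copies methylation onto new DNA strands, rose from 369 ± 4.7 to 479 ± 8.91 CPM (SD, n = 3), and Uhrf1, which brings Dnmt1 to replicating DNA, stood at 471, 444 and 431 CPM in serum and 877, 906 and 898 CPM in 2i (1.00 ± 0.046, edgeR adjusted p = 1.92e-11). All 2i libraries were above all serum libraries for both. Their 2i effects were not called different from those in J1, by 0.035 and -0.092. Dppa3, which keeps Uhrf1 from chromatin in oocytes and early embryos, fell from 44.8 ± 1.27 to 4.81 ± 0.636 CPM (-3.22 ± 0.082, edgeR adjusted p = 2.03e-14). The TET enzymes, which oxidise 5-methylcytosine, moved apart. Tet2 rose by 1.03 ± 0.085 on the log2 scale and Tet3 fell from 13.4 ± 1.3 to 6.53 ± 0.261 CPM, whereas Tet3 in J1 changed by 0.56 (difference -1.59 ± 0.11, edgeR adjusted p = 5.31e-08). Tet3 lies on chromosome 6, where the median was 0.44 in J1 and the median difference was -0.44. For Tet1 the libraries overlapped and the change of -0.10 ± 0.099 was not called (edgeR adjusted p = 0.374), but with length offsets it was -0.25 and called. Zbtb38, a zinc finger protein that binds methylated DNA, rose by 0.78 ± 0.065. Of 18 genes for methylation writers, erasers and readers, 8 rose, 7 fell and 3 were not called, with a median log2 fold change of 0.0076. Over all 17885 genes tested, 65.4% were called (32.7% higher and 32.7% lower), with a median of 0.0091.

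**Figure D2:**
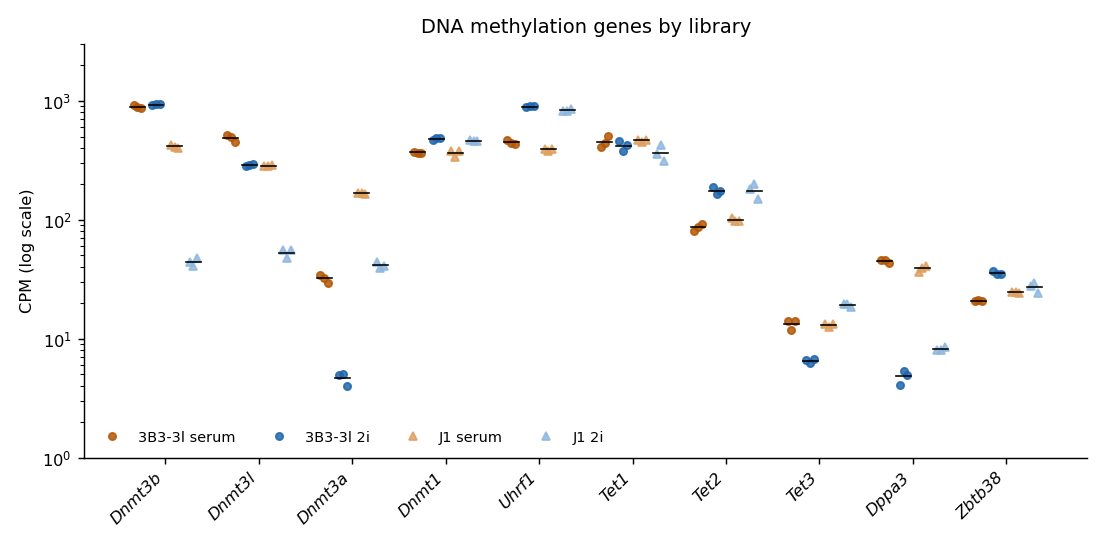
CPM on a log axis for 10 DNA methylation genes in each library of 3B3-3l (circles) and J1 (triangles), in serum and 2i; black bars are means of 3 libraries. Dnmt3b stayed near 928 CPM in 3B3-3l 2i and stood at 44.1 CPM in J1 2i.

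Most genes tested in 3B3-3l differed between the media. At an edgeR adjusted p under 0.05, 11688 of 17885 genes were called, 5846 higher and 5842 lower in 2i. Changes past 2-fold were mostly falls, with 2885 genes lower (16.1%) and 1305 higher (7.3%). For 12441 genes (69.6%) the libraries of the media did not overlap. Against a threshold of 2-fold itself, 2121 genes were lower and 847 higher. With the genes of chromosomes 6 and 8 left out, 64.7% were called (31.8% higher and 33.0% lower). In J1, 66.1% of genes were called.

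Among the 10 genes that rose most, 3 were neighbours on chromosome 13. Dmgdh, a mitochondrial enzyme that oxidises dimethylglycine (chromosome 13, 93674436 to 93752823, ENSMUSG00000042102), stood at 0.653, 0.478 and 0.592 CPM in serum and 82.7, 81.7 and 79 CPM in 2i. No library of the media overlapped, and the log2 fold change was 7.14 ± 0.10, edgeR adjusted p = 1.06e-16. Bhmt and Bhmt2, which transfer methyl groups to homocysteine, start at -57.5 and -18.3 kb relative to the start of Dmgdh and rose from 0.394 ± 0.033 to 15 ± 0.94 CPM and from 0.695 ± 0.0811 to 21.8 ± 0.386 CPM. Farther out in the same 500 kb on each side, Homer1 (-0.52) and Jmy (-0.19) fell, Lhfpl2 rose (0.35) and Arsb was not called (-0.090). The call of Jmy was lost without 2i replicate 2, 2i replicate 3 or serum replicate 3 (-0.19 to -0.13), and that of Lhfpl2 without 2i replicate 2 or 3 or serum replicate 1 or 3 (0.30 to 0.34). The unnamed gene AW495222 (93706100 to 93719175) lies within the bounds of Dmgdh and went from 4 counts over the serum libraries to 93 over the 2i libraries. Whether its reads came from transcripts of Dmgdh was not tested. The rise was larger than in J1 for all 3 enzymes, by 2.60 for Dmgdh, 1.92 for Bhmt and 1.83 for Bhmt2 (edgeR adjusted p = 3.14e-07, 3.11e-05 and 2.24e-06).

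The other genes of this group were the caudal homeobox genes Cdx1 (6.09 ± 0.16) and Nkx1-2 (5.16 ± 0.16), the surface antigen Ly6a (6.05 ± 0.14), the imprinted deiodinase Dio3 (4.93 ± 0.13), the oocyte and ES cell homeobox gene Crxos1 (4.83 ± 0.087), the Csf1 receptor ligand Il34 (4.74 ± 0.12) and the predicted gene Gm5096 (6.42 ± 0.17). Ly6a stood at 0.679, 0.573 and 0.438 CPM in serum and 35.8, 41.1 and 35.9 CPM in 2i. Each of these was higher in all 2i libraries. The rises of Ly6a, Dio3, Gm5096, Il34 and Crxos1 exceeded those in J1, by 2.67, 2.60, 2.45, 1.30 and 0.57. Il34 lies on chromosome 8, where the median difference was 0.23.

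The genes that fell most had few reads left in 2i. H19, an imprinted noncoding RNA, had 8227 counts over the serum libraries and 2 over the 2i libraries, a ratio of 4270.1 with a 95% counting interval of 1182 to 35266. Car4, a membrane-bound carbonic anhydrase, had 3459 and 3 counts, a ratio of 1197 with a 95% counting interval of 409 to 5807. Dll1, a Notch ligand, stood at 34.4, 34.8 and 31.1 CPM in serum and 0.024, 0.0927 and 0.0516 CPM in 2i, and its fall was larger than in J1 (difference -3.87 ± 0.54, edgeR adjusted p = 6.42e-05). Enpp2, which makes lysophosphatidic acid (-8.78 ± 0.22), Fndc3c1 (-8.21 ± 0.18), the secreted kinase Pkdcc (-7.20 ± 0.23), the matrix protein Thbs1 (-7.67 ± 0.12) and the smooth muscle genes Acta2 (-7.03 ± 0.16) and Cnn1 (-6.67 ± 0.25) also fell. The serum and 2i libraries did not overlap for any of them.

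Naive pluripotency factors rose and genes of the later epiblast fell. Of 19 naive genes, 15 rose and 3 fell (median 0.78). Prdm14, which represses the de novo methyltransferases in naive cells (chromosome 1, 13113428 to 13127163, ENSMUSG00000042414), stood at 12.2, 12.2 and 12.8 CPM in serum and 45.5, 49.8 and 47.7 CPM in 2i (1.94 ± 0.059, edgeR adjusted p = 1.19e-13). Esrrb, an orphan nuclear receptor, stood at 568, 549 and 525 CPM in serum and 908, 972 and 935 CPM in 2i (0.78 ± 0.052, edgeR adjusted p = 1.71e-09). For both, every 2i library exceeded every serum library, and both rises were larger than in J1, by 0.63 and 0.31.

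Tfcp2l1 (listed as Tcfcp2l1), a factor downstream of Stat3, stood at 212, 228 and 237 CPM in serum and 1229, 1208 and 1233 CPM in 2i (2.44 ± 0.070, edgeR adjusted p = 6.71e-14). Tbx3 rose from 50.4 ± 3.66 to 239.6 ± 1.23 CPM, Klf4 from 80.8 ± 2.13 to 236 ± 4 CPM, Nr5a2 from 36.1 ± 0.725 to 82.2 ± 3.31 CPM and Nanog from 346 ± 5.85 to 594 ± 15.7 CPM. Nanog lies on chromosome 6, where the lines differ as a whole, and its 2i effect differed from that of J1 by -0.26. Zfp42 (Rex1) and Klf2 lie on chromosome 8. Zfp42 rose by 0.39 ± 0.058. Klf2 rose by 0.18 ± 0.066, but not past the threshold when certain single libraries were left out, with 0.10 without 3B3-3l serum replicate 3, 0.16 without 3B3-3l 2i replicate 2 and 0.17 without 3B3-3l 2i replicate 3. Both were lower in 2i in J1, at -0.36 and -0.45, and their differences were called (0.75 and 0.63). The naive genes that fell included Dppa4 (-0.67 ± 0.051) and Nr0b1 (-0.40 ± 0.054), which encode a chromatin factor and an orphan nuclear receptor. The list's median in J1 was 0.28, and 12 of its members responded more positively and 2 more negatively to 2i in 3B3-3l, against 16.3% and 18.3% of all genes.

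Factors common to naive and primed cells did not rise. Of 12 tested, 0 rose, 10 fell and 2 were not called, and the median change was -0.39. Dnmt3l (-0.74) is among those that fell, although its reads of the endogenous gene and of the transgene cannot be told apart. None of the 12 was higher at an unadjusted p under 0.05 or with DESeq2. Pou5f1 stood at 1365, 1199 and 1109 CPM in serum and 1320.2, 1368 and 1309 CPM in 2i, which overlapped, and was not called (0.12 ± 0.078, edgeR adjusted p = 0.185), though without 3B3-3l serum replicate 1 it was 0.21 and called. Sox2 fell from 326 ± 19.9 to 250.2 ± 15.3 CPM, and Lin28a and Lin28b, which block let-7 maturation, fell by 1.04 and 1.32. The adhesion molecule Epcam fell from 145 ± 4.52 to 30.3 ± 2.27 CPM, and the chromatin-bound Utf1 from 242 ± 24.4 to 66.6 ± 3.35 CPM.

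Of 18 formative and primed genes, 1 rose and 16 fell, around a median of -2.39. Otx2, which drives the exit from the naive state, stood at 40.8, 45.7 and 49.8 CPM in serum and 13.4, 13.5 and 13.9 CPM in 2i (-1.74 ± 0.072, edgeR adjusted p = 4.77e-12). All 2i libraries were lower, but the fall was smaller than in J1 (difference 2.11 ± 0.11, edgeR adjusted p = 5.91e-09). Fgf5, the usual marker of the primed epiblast, stood at 4.7, 5.69 and 5.23 CPM in serum and 0.0481, 0.0232 and 0.0258 CPM in 2i, with 4 counts in all over the 2i libraries. Pou3f1 (Oct6) fell from 29.2 ± 1.66 to 0.454 ± 0.0824 CPM and Fgf15 from 20.8 ± 1.51 to 0.498 ± 0.131 CPM. Foxd3 was the exception. It stood at 12.7, 13.1 and 11.7 CPM in serum and 17.2, 17.9 and 18.9 CPM in 2i, higher in all 2i libraries (0.53 ± 0.071, edgeR adjusted p = 6.56e-06), while in J1 it changed by -1.42 (difference 1.95 ± 0.10, edgeR adjusted p = 4.15e-09).

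The feedback genes of ERK fell only in part. Of 21, 4 rose, 13 fell and 4 were not called, with a median of -0.67. The dual-specificity phosphatases Dusp4 and Dusp5, which inactivate ERK in the nucleus, fell far. Dusp4 stood at 84.8, 72.5 and 68.7 CPM in serum and 2.09, 2.66 and 2.55 CPM in 2i (-4.95 ± 0.10, edgeR adjusted p = 3.09e-15), and Dusp5 fell from 23.8 ± 1.14 to 1.86 ± 0.232 CPM. The Sprouty inhibitors of receptor signalling differed among themselves, with Spry1 at -2.18 ± 0.076 and Spry4 at -1.79 ± 0.045, whereas Spry2 rose (0.31 ± 0.044). Spry2 stood at 74, 77.1 and 73.9 CPM in serum and 91.1, 94.5 and 93.3 CPM in 2i, without overlap, and was lower in 2i in J1 (-0.38, difference 0.69 ± 0.062, edgeR adjusted p = 9.32e-07). Dusp6, the cytoplasmic ERK phosphatase, fell from 37.5 ± 0.795 to 13 ± 0.489 CPM, by less than in J1 (difference 0.88). Etv5, an ETS factor under ERK control, went from 486 ± 4.72 to 509 ± 6.07 CPM and was not called (0.067 ± 0.042), although its libraries did not overlap. In J1 Etv5 fell (-0.61, difference 0.68 ± 0.060, edgeR adjusted p = 6.35e-07). Etv4 and Ccnd1 rose by 0.32 ± 0.062 and 0.31 ± 0.058. Ier3 fell by 3.04.

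Of 15 immediate early genes, which respond within minutes to growth factors, 3 rose and 12 fell (median -1.72). Egr1 stood at 50.1, 47.9 and 49.7 CPM in serum and 0.649, 0.95 and 2.91 CPM in 2i. The 2i libraries were all lower but spread widely, and the log2 fold change was -5.06 ± 0.30, edgeR adjusted p = 4.17e-10. The AP-1 members Fos (-3.07 ± 0.13), Jun (-3.11 ± 0.13) and Junb (-2.13 ± 0.084) fell, while the stress-inducible Atf3 rose from 2.8 ± 0.104 to 8.02 ± 0.435 CPM. Myc fell by 0.69, by less than in J1 (difference 0.96).

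Targets of beta-catenin moved in both directions. Of 21, 11 rose, 5 fell and 5 were not called, and the median change was 0.39. Axin2, the scaffold that feeds back on the pathway, stood at 7.23, 7.34 and 6.98 CPM in serum and 51, 52.1 and 51.8 CPM in 2i (2.84 ± 0.052, edgeR adjusted p = 7.54e-16). Sp5, a zinc finger factor induced by Wnt, stood at 2.24, 1.72 and 1.8 CPM in serum and 16.5, 17 and 15.5 CPM in 2i (3.09 ± 0.097, edgeR adjusted p = 1.86e-13). Both were higher in every 2i library, and both rises were smaller than in J1, by 0.50 and 0.86 on the log2 scale. The Sp5 promoter is shown because it holds CTTTGAT, a form of the Tcf/Lef site (in capitals, 104 bases before the start of transcription), at chr2:70474673-70474972 on the plus strand of GRCm38.p6 as given by RefSeq.
Sp5: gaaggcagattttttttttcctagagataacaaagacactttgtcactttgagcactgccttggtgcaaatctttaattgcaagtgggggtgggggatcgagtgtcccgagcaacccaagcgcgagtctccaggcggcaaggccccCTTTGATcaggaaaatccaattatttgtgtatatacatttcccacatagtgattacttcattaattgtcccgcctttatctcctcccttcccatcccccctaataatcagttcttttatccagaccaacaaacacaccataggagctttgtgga
CTTTGAT was read on both strands in windows from 250 bases before to 50 after each start. It occurred in 1225 of 32851 windows (3.73%, from 1160 of 27025 genes) of all genes and in 2 of 23 windows (8.7%, from 2 of 15 genes) of the Wnt list. A match is a description of the letters and no measure of binding.

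T (brachyury), a mesoderm factor, rose from 1.31 ± 0.285 to 8.01 ± 0.49 CPM, by less than in J1 (difference -1.48). Notum, which removes the lipid from Wnt proteins, rose from 9.91 ± 0.95 to 32.1 ± 1.84 CPM, by more than in J1 (difference 1.45 ± 0.12, edgeR adjusted p = 3.02e-07). Apcdd1 rose by 1.00 ± 0.079. In contrast Lef1, itself a nuclear partner of beta-catenin, fell by 2.00, Nkd2 by 2.63 and the imprinted Ascl2 by 3.37.

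Among 15 caudal and posterior genes, 7 rose and 7 fell, around a median of 0.50. Cdx1 (chromosome 18, 61018862 to 61036199, ENSMUSG00000024619) stood at 0.261, 0.478 and 0.567 CPM in serum and 30.5, 29.7 and 29.5 CPM in 2i (6.09 ± 0.16, edgeR adjusted p = 2.04e-14) and Nkx1-2 at 0.209, 0.358 and 0.361 CPM in serum and 10.4, 10.6 and 12.7 CPM in 2i. All 2i libraries were above all serum libraries for both. Nkx1-2 rose by less than in J1 (difference -1.58), and for Cdx1 the difference was not called (-0.79) but was with the DESeq2 Wald test, with no filter and without 3B3-3l serum replicate 1, J1 2i replicate 3 or J1 serum replicate 2 (-1.11 to -0.78). Fgf17 fell from 31.8 ± 3.75 to 5.89 ± 0.288 CPM. Hox genes were low in both media. Of 39 listed, 17 could be tested, and of these 15 rose, 0 fell and 2 were not called, with a median of 2.38. The filter on low counts kept a gene with enough counts in any group. Hox genes near the floor in serum thus entered only through a group where they were higher. The count of rises and the median rest in part on this filter. Hoxc13, the member with the highest CPM, stood at 2.53, 1.89 and 2.37 CPM in serum and 9.81, 9.17 and 9.18 CPM in 2i (2.06 ± 0.10, edgeR adjusted p = 5.47e-11), and its rise was smaller than in J1 (difference -0.78). Hoxb7 (0.0015 ± 0.52) was not called. No Hox gene was lower at an unadjusted p under 0.05 or with DESeq2. For 3 of the 17 Hox genes tested the 2i effect was lower than in J1, against 18.3% of all genes. For 0 it was higher, against 16.3% of all genes, with 1 Hox gene at an unadjusted p under 0.05 and 0 with DESeq2.

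**Figure D3:**
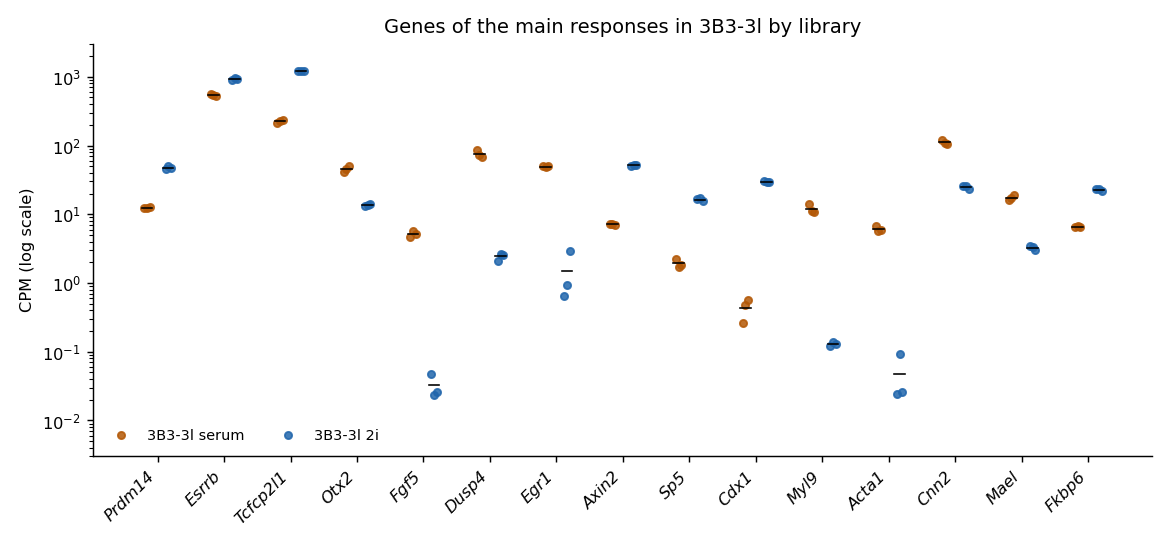
CPM on a log axis of 15 genes in each library of 3B3-3l, in serum and 2i; black bars are means of 3 libraries. Dusp4 fell from 75.3 ± 8.42 to 2.44 ± 0.304 CPM and Cdx1 rose from 0.435 ± 0.157 to 29.9 ± 0.511 CPM, and the media did not overlap for any gene shown.

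Genes of the LIF pathway were divided. Of 12, 6 rose and 4 fell (median 0.12). Stat3 itself rose from 107 ± 0.785 to 175 ± 6.37 CPM, while Socs3, its feedback inhibitor, stood at 171, 163 and 157 CPM in serum and 80.2, 80.6 and 82.2 CPM in 2i (-1.01 ± 0.060, edgeR adjusted p = 3.65e-10). Socs3 fell in all 2i libraries, by more than in J1 (difference -0.52). Gfpt2, an enzyme of hexosamine synthesis, fell from 128 ± 4.16 to 29.6 ± 0.667 CPM.

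Of 15 BMP pathway and Id genes, 5 rose, 7 fell and 3 were not called, and the median change was -0.79. The Id proteins, which bind and block bHLH factors, differed among themselves. Id2 fell from 30.4 ± 1.91 to 0.546 ± 0.14 CPM and Id1 from 35.8 ± 5.46 to 8.98 ± 0.439 CPM, whereas Id3 rose from 15.1 ± 2.06 to 27.8 ± 0.549 CPM. Bmp4 rose from 14.1 ± 0.848 to 29.2 ± 2.24 CPM in 3B3-3l and changed by -0.10 in J1 (difference 1.16 ± 0.099, edgeR adjusted p = 5.21e-07). Gata2 fell from 9.82 ± 2.04 to 1.59 ± 0.113 CPM, and its difference from J1 was -2.48 ± 0.22, edgeR adjusted p = 7.03e-07, on chromosome 6.

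Of 15 Nodal and primitive streak genes, 7 rose and 6 fell, around a median of 0.23. Nodal, the ligand, stood at 44.3, 43.7 and 41 CPM in serum and 93.8, 95.6 and 96 CPM in 2i (1.15 ± 0.052, edgeR adjusted p = 1.36e-11), and Lefty1, the secreted inhibitor that Nodal signalling induces, at 224, 203 and 201 CPM in serum and 38, 39.4 and 41 CPM in 2i (-2.41 ± 0.068, edgeR adjusted p = 5.40e-14). Nodal was thus higher and Lefty1 lower in all 2i libraries, whereas Lefty2, of the same list, rose (0.23). The rise of Nodal was larger than in J1 (difference 0.65). Skil, a SMAD corepressor, fell from 179 ± 15.7 to 28.2 ± 2.16 CPM, and Eomes rose from 3.55 ± 0.0324 to 18.6 ± 0.555 CPM.

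**Figure D4:**
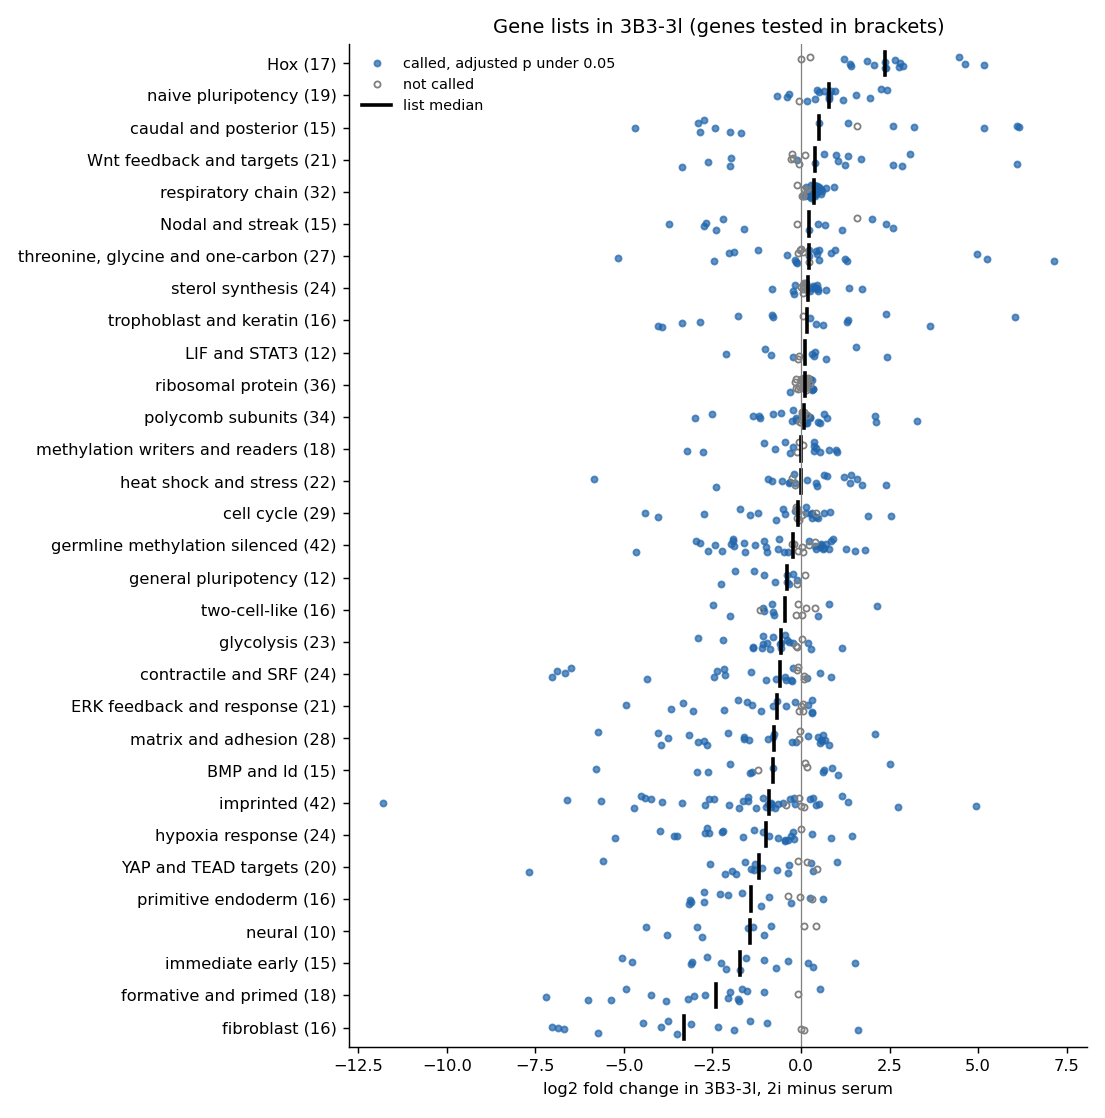
Log2 fold change of 2i against serum in 3B3-3l (x axis) for every tested member of 31 gene lists (y axis, number of genes in brackets), with called genes filled, others open and the median of each list as a bar. The Hox list had the highest median (2.38). Genes near the floor in 1 medium entered the test only through a group where they were higher, which affects such medians. The fibroblast median (-3.30) and that of the formative and primed list (-2.39) were the lowest, and with genes without counts at 3 counts per library they were -2.30 and -2.39.

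Cytoskeletal and matrix genes fell. Of 24 contractile genes, most of them targets of the serum response factor SRF, 3 rose, 17 fell and 4 were not called, with a median of -0.58. The muscle-type members fell most. Myl9, a regulatory myosin light chain, stood at 14, 11.2 and 10.7 CPM in serum and 0.12, 0.139 and 0.129 CPM in 2i (-6.50 ± 0.20, edgeR adjusted p = 1.20e-13), and Acta1, the skeletal muscle actin, at 6.81, 5.76 and 5.95 CPM in serum and 0.024, 0.0927 and 0.0258 CPM in 2i (-6.90 ± 0.35, edgeR adjusted p = 5.33e-11). Cnn2, a calponin, stood at 119, 109.7 and 104 CPM in serum and 25.8, 25.6 and 23.6 CPM in 2i (-2.15 ± 0.070, edgeR adjusted p = 2.80e-13). No library of the media overlapped for any of the 3. Tagln fell by 4.34, by less than in J1 (difference 1.31). Vim (0.54 ± 0.061) and Csrp1 (0.85 ± 0.062) rose. Actins are near-identical in their coding sequence, so that reads of Acta1 and Acta2 are uncertain in part.

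The promoters of Myl9, Acta1 and Cnn2 are shown because each holds a CArG box, the motif of SRF, in capitals. They are at chr2:156775214-156775513 on the plus strand, chr8:123894726-123895025 on the minus strand and chr10:79988350-79988649 on the plus strand of GRCm38.p6 from RefSeq, and the boxes begin 161, 73 and 56 bases before the start.
Myl9: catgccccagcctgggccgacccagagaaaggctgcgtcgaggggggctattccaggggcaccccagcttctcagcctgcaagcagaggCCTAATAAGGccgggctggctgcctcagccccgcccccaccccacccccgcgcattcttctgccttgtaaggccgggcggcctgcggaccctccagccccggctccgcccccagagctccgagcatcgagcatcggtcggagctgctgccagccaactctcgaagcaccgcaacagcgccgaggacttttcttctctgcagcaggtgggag
Acta1: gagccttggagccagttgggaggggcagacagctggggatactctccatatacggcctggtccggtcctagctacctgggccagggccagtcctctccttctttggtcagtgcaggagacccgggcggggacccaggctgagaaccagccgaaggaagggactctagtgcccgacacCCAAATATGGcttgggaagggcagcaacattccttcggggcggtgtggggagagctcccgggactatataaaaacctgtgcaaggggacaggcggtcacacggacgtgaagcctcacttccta
Cnn2: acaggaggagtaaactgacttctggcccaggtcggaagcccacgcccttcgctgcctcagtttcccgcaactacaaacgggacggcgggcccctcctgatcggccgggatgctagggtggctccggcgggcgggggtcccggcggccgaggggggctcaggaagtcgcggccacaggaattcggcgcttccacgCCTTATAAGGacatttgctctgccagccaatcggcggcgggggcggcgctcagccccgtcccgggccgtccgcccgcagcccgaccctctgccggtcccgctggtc
A CArG box on either strand occurred in 535 of 32851 windows (1.63%, from 488 of 27025 genes) of all genes, in 6 of 24 windows (25%, from 6 of 21 genes) of the contractile list, in 5 of 15 windows (33.3%, from 5 of 15 genes) of its members that fell and in 0 of 4 windows of those that rose. Of the immediate early list, 5 of 15 windows (33.3%, from 2 of 11 genes) held one. The contractile list consists mostly of SRF targets, so its high share follows in part from the choice of members. The windows of its members that rose came from only 3 genes. A match is no measure of binding, and a part of SRF in these changes was not tested.

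Of 20 targets and partners of YAP, 3 rose and 14 fell (median -1.20). The secreted matricellular proteins Thbs1, Cyr61 and Ctgf fell. Thbs1 stood at 33.4, 30.9 and 31.4 CPM in serum and 0.144, 0.162 and 0.155 CPM in 2i, and Cyr61 and Ctgf fell from 31.8 ± 2.33 to 5.31 ± 0.0196 CPM and from 59.2 ± 3.21 to 16.8 ± 0.278 CPM. Cyr61 and Ctgf fell by less than in J1 (differences 0.92 and 1.02). Wwtr1, the YAP paralog TAZ, rose from 33.7 ± 1.49 to 68.5 ± 1.49 CPM.

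Of 28 matrix and adhesion genes, 9 rose, 17 fell and 2 were not called, and the median change was -0.77. Collagens fell, with Col1a1 from 35.5 ± 4.4 to 2.3 ± 0.0254 CPM, Col4a1 from 50.8 ± 3.72 to 7.57 ± 0.6 CPM, Col4a2 from 24.1 ± 1.97 to 2.67 ± 0.424 CPM and Col18a1 from 556 ± 53 to 87.8 ± 4.12 CPM. Col4a1 and Col4a2 lie on chromosome 8, whose median was above 0. Nidogen (Nid1), which links laminin to collagen, rose instead, at 100, 106 and 108 CPM in serum and 436, 443 and 447 CPM in 2i (2.08 ± 0.062, edgeR adjusted p = 1.12e-13). Fibronectin (Fn1) and E-cadherin (Cdh1) rose by 0.58 ± 0.084 and 0.67 ± 0.052, and the rise of Cdh1 was larger than in J1 (difference 0.53). Cdh1 also lies on chromosome 8, where the median difference was 0.23. Of 22 fibroblast genes listed, 16 could be tested, those near the floor in 2i only through a group where they were higher. Of these 16, 1 rose and 13 fell, around a median of -3.30 (-2.30 with the 2 genes without counts in 2i set to 3 counts per library). The exception was Ddr2, a collagen receptor, which rose from 4.43 ± 0.637 to 13.6 ± 0.717 CPM and changed by -0.16 in J1 (difference 1.78 ± 0.17, edgeR adjusted p = 1.12e-06). Of the 16, 14 are among the 20 fibroblast or feeder markers whose summed level differed between the media.

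Germline genes that DNA methylation is known to silence did not move together. Of 42, 15 rose, 20 fell and 7 were not called, with a median of -0.24. Mael, a piRNA pathway protein, stood at 15.9, 17.5 and 19 CPM in serum and 3.46, 3.31 and 2.99 CPM in 2i (-2.42 ± 0.12, edgeR adjusted p = 3.35e-11). Smc1b, a meiotic cohesin, fell from 14.5 ± 2.5 to 1.86 ± 0.405 CPM, Taf9b from 16.8 ± 1.61 to 2.31 ± 0.373 CPM, and the germ cell helicase Ddx4 and the piRNA-binding Piwil2 fell by 1.29 and 1.59. Fkbp6, a chaperone of the same pathway, rose and stood at 6.45, 6.64 and 6.51 CPM in serum and 23, 23.1 and 22 CPM in 2i (1.79 ± 0.085, edgeR adjusted p = 2.49e-11). The RNA-binding Dazl rose from 6.45 ± 0.894 to 15.7 ± 1.67 CPM, the ribosomal retrogene Rpl10l from 23.3 ± 2.71 to 67.4 ± 2.39 CPM, and Syce1, of the synaptonemal complex, by 0.89 ± 0.089. For each of these genes the media did not overlap. Rpl10l and Tuba3a have near-identical relatives, so that their reads are uncertain.

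The promoters of Mael and Fkbp6 are shown because the genes moved in opposite directions while both promoters hold the E-box CACGTG (in capitals), which Max and Mga bind at germline genes. They are at chr1:166238695-166238994 on the minus strand and chr5:135349995-135350294 on the minus strand of GRCm38.p6 from RefSeq.
Mael: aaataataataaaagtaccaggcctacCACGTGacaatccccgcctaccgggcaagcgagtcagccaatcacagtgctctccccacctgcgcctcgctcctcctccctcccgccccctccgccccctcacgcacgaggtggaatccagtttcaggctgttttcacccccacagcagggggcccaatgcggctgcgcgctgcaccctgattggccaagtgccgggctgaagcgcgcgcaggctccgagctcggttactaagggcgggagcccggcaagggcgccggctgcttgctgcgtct
Fkbp6: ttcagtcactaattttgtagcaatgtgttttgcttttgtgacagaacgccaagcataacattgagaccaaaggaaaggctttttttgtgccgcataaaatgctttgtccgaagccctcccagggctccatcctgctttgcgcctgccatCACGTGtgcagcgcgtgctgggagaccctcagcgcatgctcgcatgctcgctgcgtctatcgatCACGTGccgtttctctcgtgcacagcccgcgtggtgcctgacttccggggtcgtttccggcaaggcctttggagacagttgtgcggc
CACGTG occurred in 2349 of 32851 windows (7.15%, from 2187 of 27025 genes) of all genes and in 20 of 47 windows (42.6%, from 16 of 38 genes) of the germline list. Among windows of members that rose it was in 7 of 16 windows (43.8%, from 5 of 14 genes), and of members that fell in 11 of 25 windows (44%, from 9 of 18 genes).

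The 2i effect was higher than in J1 for 10 of the 42 germline genes and lower for 16, against 16.3% and 18.3% of all genes. Tex15, which acts in piRNA-guided silencing, stood at 11.9, 14.7 and 15.9 CPM in serum and 24.4, 21.1 and 23.4 CPM in 2i, higher in all 2i libraries, whereas it fell in J1 (-1.34, difference 2.03 ± 0.17, edgeR adjusted p = 4.29e-07). It lies on chromosome 8, where the median difference was 0.23. Smc1b and Taf9b fell by more than in J1, by 1.99 and 2.09. Tuba3a, on chromosome 6, rose by 0.80 ± 0.090, against 2.19 in J1.

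Imprinted genes, whose parental copies carry different methylation, mostly fell. Of 42, 8 rose and 30 fell (median -0.90). Igf2, the growth factor gene beside H19, stood at 44.1, 41.3 and 42 CPM in serum and 0.769, 0.904 and 0.877 CPM in 2i (-5.64 ± 0.095, edgeR adjusted p = 3.29e-16). Peg10, a retrotransposon-derived gene, stood at 507, 535 and 579.5 CPM in serum and 24.5, 22.8 and 23.1 CPM in 2i (-4.53 ± 0.076, edgeR adjusted p = 3.29e-16), and Magel2 fell from 8.25 ± 0.13 to 0.0793 ± 0.0473 CPM. No libraries overlapped between the media. Phlda2, a brake on placental growth, stood at 48.2, 43.5 and 41.4 CPM in serum and 2.57, 2.25 and 2.24 CPM in 2i, and its fall was larger than in J1 (difference -2.62 ± 0.12, edgeR adjusted p = 1.66e-09). The zinc finger gene Peg3 fell from 215 ± 15.6 to 33.2 ± 0.581 CPM, the noncoding RNA Meg3 from 512 ± 31 to 283 ± 0.962 CPM and Mest from 123 ± 2.72 to 58 ± 0.24 CPM. Peg3 fell by more than in J1 (difference -1.52), whereas in J1 Meg3 was not called (-0.048, difference -0.80) and Mest rose (0.32, difference -1.40). Mest and Peg10 lie on chromosome 6, where the median difference was -0.44. In the direction opposite to the list, Dio3 stood at 0.6, 0.573 and 0.464 CPM in serum and 16.4, 16.8 and 17.1 CPM in 2i and the zinc finger gene Plagl1 rose from 7.21 ± 0.983 to 47.8 ± 3.98 CPM. In all, 23 of the 42 imprinted genes had a lower 2i effect than in J1 and 5 a higher one, against 18.3% and 16.3% of all genes. The list's median in J1 was -0.31. Allele-specific reads were not analysed here.

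Polycomb subunits, which deposit and read H3K27me3 and H2AK119ub1, showed no common direction. Of 34, 15 rose, 11 fell and 8 were not called, and the median change was 0.074. The catalytic subunit Ezh2 stood at 147, 162 and 169 CPM in serum and 166, 163 and 168 CPM in 2i, which overlapped, and was not called (0.055 ± 0.051, edgeR adjusted p = 0.364). In J1 Ezh2, on chromosome 6, rose by 0.76. Suz12 rose by 0.53 ± 0.079 and Jarid2, a PRC2 cofactor, fell from 461 ± 9.19 to 265 ± 3.52 CPM. Phf19, which brings PRC2 to CpG islands, fell from 24.1 ± 0.85 to 3.04 ± 0.482 CPM and Phc1, of canonical PRC1, from 814 ± 6.01 to 319.96 ± 7.12 CPM. Bmi1 rose from 2.94 ± 0.223 to 12.4 ± 1.77 CPM and Pcgf1, of variant PRC1, by 0.75 ± 0.065.

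Glycolytic genes fell, and by more than in J1. Of 23, 3 rose and 17 fell, around a median of -0.58. The glucose transporter Slc2a1 (GLUT1) stood at 966, 1011 and 977 CPM in serum and 201, 211 and 234 CPM in 2i (-2.19 ± 0.091, edgeR adjusted p = 5.10e-12), and Slc16a3 (MCT4), which exports lactate, at 199, 204 and 201 CPM in serum and 22.3, 23.2 and 34.7 CPM in 2i (-2.92 ± 0.15, edgeR adjusted p = 6.10e-11). All 2i libraries were lower. Lactate dehydrogenase A (Ldha) fell from 1821 ± 65.6 to 848 ± 43.6 CPM, Pgk1 from 1454 ± 81.9 to 694 ± 33.6 CPM, and Pdk1, which holds pyruvate back from the mitochondrion, from 196 ± 11.1 to 93.8 ± 5.87 CPM. Hk1 was among the 3 that rose (from 89.7 ± 1.46 to 199 ± 9.08 CPM), while Hk2 fell by 0.57.

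The 2i effect of 19 glycolytic genes was lower than in J1 and that of 1 was higher, against 18.3% and 16.3% of all genes, and the medians were -0.58 in 3B3-3l and -0.13 in J1. The differences were -1.62 ± 0.12, edgeR adjusted p = 1.75e-07 for Slc2a1, -1.92 ± 0.20, edgeR adjusted p = 3.08e-06 for Slc16a3 and -0.60, -0.63 and -0.45 for Pgk1, Pdk1 and Ldha. Tpi1 (-1.40), Slc2a3 (-1.34) and Hk2 (-1.02) lie on chromosome 6, where the median difference was -0.44, and each of them rose in J1.

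A list of 24 genes of the hypoxia response was added after these values were seen. Of its members 3 rose, 20 fell and 1 was not called, with a median of -0.99, against -0.12 in J1. A lower 2i effect than in J1 was called for 18, against 18.3% of all genes. None had a higher effect at an unadjusted p under 0.05 or with DESeq2. The mitophagy receptor Bnip3 stood at 135, 148 and 161 CPM in serum and 11.3, 10.6 and 17.5 CPM in 2i, with J1 at 118 ± 15.1 CPM in serum against 65.2 ± 12.8 CPM in 2i (difference -2.65 ± 0.23, edgeR adjusted p = 5.24e-07). Egln3, a prolyl hydroxylase that oxygen-sensing induces, stood at 47, 60.9 and 62.4 CPM in serum and 3.32, 2.83 and 4.62 CPM in 2i and differed by -2.43. Ddit4, an inhibitor of mTORC1, fell from 257 ± 5.15 to 42.6 ± 3.25 CPM (difference -1.55), the lysyl oxidase Loxl2 from 27.3 ± 1.72 to 2.26 ± 0.337 CPM (difference -2.84) and Ndufa4l2 from 17.6 ± 1.9 to 2.73 ± 0.86 CPM (difference -3.18). Vegfa fell by 0.27 and rose in J1 (1.05, difference -1.32 ± 0.091, edgeR adjusted p = 6.17e-08). Ak4 rose in 3B3-3l (1.44 ± 0.075), and its difference from J1 was not called (0.16), though it was with length offsets (0.26). These genes were named after their values were seen. Slc2a1 and Pdk1 are also in the glycolysis list.

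**Figure D5:**
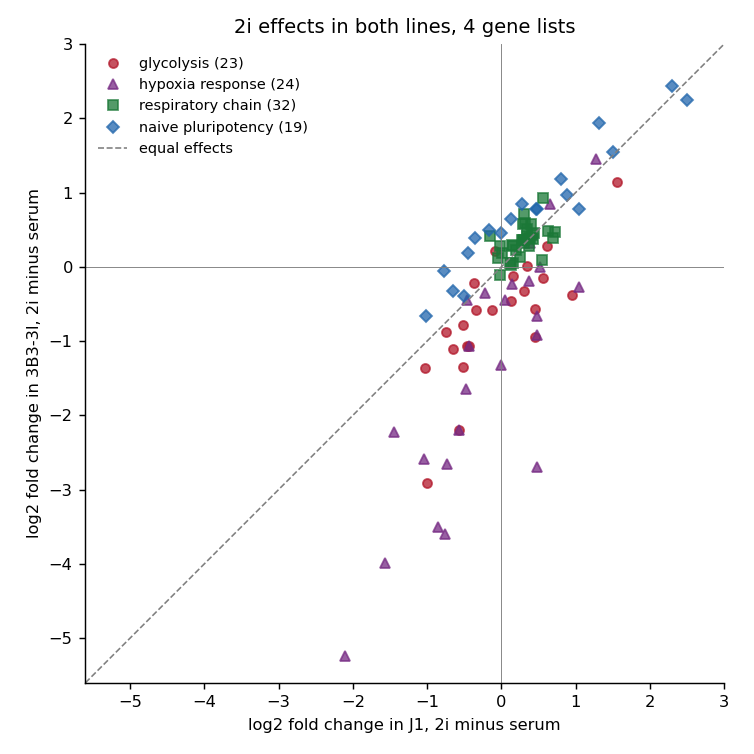
Log2 fold change of 2i against serum in 3B3-3l (y axis) against that in J1 (x axis) for the members of 4 gene lists, with the number tested in brackets and a dashed line of equal effects. Most glycolysis and hypoxia response genes lie below the line, with medians of -0.58 and -0.99 in 3B3-3l, and most naive pluripotency genes lie above it.

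Genes of the respiratory chain rose by small amounts. Of 32, 26 rose and 0 fell (median 0.36). In the lower direction 1 member passed an unadjusted p under 0.05 and 1 was called with DESeq2. None passed 2-fold. Uqcrb, of complex III, rose from 71.8 ± 1.57 to 137 ± 8.22 CPM and Cox7a2, of complex IV, from 97.1 ± 6.87 to 158 ± 6.37 CPM. The median in J1 was 0.30, and the difference was called for 8 of the 32 members, against 34.7% of all genes.

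Of 27 genes for threonine, glycine and one-carbon metabolism, 13 rose, 9 fell and 5 were not called, and the median change was 0.22. Threonine dehydrogenase (Tdh), on which mESCs depend for glycine, stood at 459, 416 and 408 CPM in serum and 1033, 1084 and 1032 CPM in 2i (1.30 ± 0.057, edgeR adjusted p = 9.35e-12). Its partner Gcat rose from 59.7 ± 3.54 to 141 ± 1.52 CPM, and the glycine cleavage enzyme Gldc fell from 589.98 ± 4.91 to 253 ± 4.18 CPM. The rises of Tdh and Gcat were larger than in J1 by 0.82 and 0.44, and the fall of Gldc was smaller by 0.66. Dmgdh, Bhmt and Bhmt2 are members of this list. Of 24 sterol synthesis genes, 14 rose and 4 fell, around a median of 0.21. Ebp rose from 14.4 ± 1.38 to 47.6 ± 1.81 CPM and Tm7sf2 from 10.5 ± 0.281 to 26.9 ± 0.413 CPM, and neither differed from J1 by a called amount (0.079 and -0.25). The difference of Tm7sf2 was called with at least 10 counts in every library (-0.28) and without J1 2i replicate 2 (-0.31).

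Ribosomal protein genes changed little. Of 36, 7 rose, 1 fell and 28 were not called, with a median of 0.10, and only 22.2% were called where 65.4% of all genes were. Rpl32 rose most, from 838 ± 75.9 to 1069.8 ± 61.5 CPM. In J1 the median was -0.25, and the 2i effect in 3B3-3l was higher for 24 members, against 16.3% of all genes. It was lower for 0, against 18.3% of all genes, also at an unadjusted p under 0.05 and with DESeq2. CPM are shares of all reads, so that these small shifts are relative to the other genes.

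Cell cycle regulators moved in both directions. Of 29, 11 rose and 11 fell (median -0.091). Cyclin D2 (Ccnd2) fell from 13.2 ± 0.522 to 0.801 ± 0.0488 CPM and the imprinted inhibitor Cdkn1c from 12.6 ± 1.66 to 0.595 ± 0.103 CPM, whereas the inhibitors Cdkn1a (p21) and Cdkn2a rose. Cdkn1a stood at 43.6, 43.3 and 41.5 CPM in serum and 158, 161 and 163 CPM in 2i (1.91 ± 0.053, edgeR adjusted p = 5.05e-14), and its difference from J1 was not called (0.077). Cdkn2a rose from 4.36 ± 0.294 to 25.2 ± 0.821 CPM. Mycn fell from 189 ± 11.2 to 57.6 ± 1.08 CPM.

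Of 22 heat shock and stress genes, 11 rose, 9 fell and 2 were not called, and the median change was 0.0048. The metallothioneins Mt1 and Mt2, which bind zinc and lie on chromosome 8, rose from 106 ± 9.25 to 317 ± 15.7 CPM and from 155 ± 11.4 to 515 ± 20.8 CPM. Nqo1, a target of Nrf2 on the same chromosome, rose from 8.73 ± 0.0715 to 45.8 ± 1.19 CPM. Asparagine synthetase (Asns) rose from 750.4 ± 36.7 to 1729 ± 62.2 CPM, by less than in J1 (difference -0.69, on chromosome 6). Gadd45g, a growth arrest gene, fell from 19.2 ± 1.4 to 0.332 ± 0.0912 CPM, by more than in J1 (difference -2.39).

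Genes of other embryonic lineages mostly fell or were divided. Of 16 primitive endoderm genes, 2 rose and 11 fell, around a median of -1.41. Of 20 neural genes listed, 10 could be tested, and of these 0 rose, 8 fell and 2 were not called, with a median of -1.43. Members near the floor in 2i entered the test only through a group where they were higher, so these counts rest in part on the filter. No neural gene was higher at an unadjusted p under 0.05 or with DESeq2. Pax6, a neural and eye regulator, fell from 7.51 ± 0.29 to 0.359 ± 0.125 CPM and the intermediate filament gene Nes from 106 ± 5.62 to 37.8 ± 1.13 CPM. Trophoblast and keratin genes were divided. Of 16, 8 rose and 7 fell (median 0.16). The keratins Krt18 and Krt19 fell from 86.7 ± 9.38 to 12.1 ± 0.734 CPM and from 40.1 ± 2.98 to 2.66 ± 0.494 CPM, and Ly6a, also expressed in trophoblast, rose.

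Of 16 genes of the 2-cell-like state, a rare state of mESCs in culture, 3 rose, 7 fell and 6 were not called, and the median change was -0.46. Zscan4f belongs to a family of near-identical copies, so that its reads are uncertain. It stood at 8.82, 9.37 and 9.81 CPM in serum and 4.09, 4.93 and 4.62 CPM in 2i, lower in all 2i libraries (-1.04 ± 0.16, edgeR adjusted p = 2.17e-05). In J1 it fell further (-3.79, difference 2.76 ± 0.28, edgeR adjusted p = 2.62e-06). Calcoco2, an autophagy receptor on the same list, rose from 32.9 ± 2.06 to 147 ± 8.44 CPM, by more than in J1 (difference 1.44). The 2i effect was higher than in J1 for 11 members, against 16.3% of all genes. It was lower for 0, against 18.3% of all genes, also at an unadjusted p under 0.05 and with DESeq2. Other copies of the Zscan4 family are among the 11, so that these members are not independent. The median in J1 was -2.34.

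An interaction test of line and medium called 6200 genes (34.7%), of which 2923 (16.3%) responded more positively and 3277 (18.3%) more negatively in 3B3-3l than in J1. Past 2-fold these were 2.96% and 5.26% of the genes tested. After Dnmt3b and Ly6a, the genes with the highest differences included the glutamate transporter Slc1a1, which rose from 6.15 ± 0.194 to 14.3 ± 0.677 CPM in 3B3-3l and changed by -1.43 in J1 (difference 2.65 ± 0.16, edgeR adjusted p = 2.39e-08). Spic, an ETS factor, rose from 1.21 ± 0.286 to 29.8 ± 0.852 CPM, against 2.82 ± 0.267 CPM in serum against 13.8 ± 1.8 CPM in 2i in J1 (difference 2.34 ± 0.19, edgeR adjusted p = 3.07e-07), and Susd1 rose from 7.46 ± 0.669 to 18.2 ± 0.939 CPM against -1.03 in J1 (difference 2.31 ± 0.14, edgeR adjusted p = 1.68e-08). Dmgdh, Dio3 and Gm5096 completed the first 8 among genes that averaged 10 CPM or more in at least 1 of the 4 groups and 3 counts or more per library in every group.

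At the other end stood Gm364, an X-linked predicted gene, which fell in 3B3-3l (-1.11 ± 0.11) and rose in J1 (4.34). Its libraries held 13.5, 15.2 and 17.6 CPM in serum and 6.88, 6.72 and 7.84 CPM in 2i in 3B3-3l, and 0.776 ± 0.173 CPM in serum against 15.8 ± 1.07 CPM in 2i in J1 (difference -5.45 ± 0.18, edgeR adjusted p = 5.49e-11). Gt(ROSA)26Sor, on chromosome 6, was not called in 3B3-3l (0.13 ± 0.16) and rose in J1 (3.93), which exceeds the shift of that chromosome. Usp26, an X-linked deubiquitinase of germ cells, stood at 52.2, 56.1 and 59.6 CPM in serum and 2.64, 2.32 and 2.53 CPM in 2i, and its fall was larger than in J1 (difference -3.42 ± 0.13, edgeR adjusted p = 2.55e-10). Sfi1, a centrosomal protein gene, fell from 37.6 ± 1.04 to 12.8 ± 0.709 CPM and rose in J1 (1.43). The calcium channel gene Cacna1h fell from 10.4 ± 0.75 to 0.431 ± 0.0745 CPM (difference -2.92), and Slc11a1, a metal transporter of macrophages, rose by 0.33 ± 0.087 against 3.23 in J1. Ndufa4l2 and Loxl2 were also among the 8 lowest under the same limits on reads, which Dll1 did not meet. The line, the culture surface in serum and the transgenes go together in this comparison and cannot be told apart.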

How the data were processed

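Poly(A) RNA of 12 mESC libraries, 3 biological replicates in each of 4 groups, was sequenced from stranded libraries; groups and replicate numbers are those of the labels. Transcripts had been quantified by the authors with Sailfish, set for the strand of the kit, on mm10 models. With tximport they summed these to genes and deposited estimated counts, unscaled for depth or length. They also deposited TPM, effective lengths and estimated counts per transcript for each library; TPM were not used for levels, and effective lengths entered 1 alternative. RefSeq models are named in the study's methods, whereas the table carries Ensembl identifiers. Of 39017 genes, 85.6% (98.4% of reads) had a symbol in the name table; coordinates are those of whole genes in RefSeq GRCm38. The study ran its libraries in 2 pools, and the labels do not give the pool of each, so its part was not tested.

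Estimated counts were rounded, kept by filterByExpr (17885 genes) and fitted with edgeR 4.0.16 in R 4.3.3 (TMM, quasi-likelihood F test, 1 coefficient per group, all 12 libraries); Benjamini-Hochberg adjustment was over all genes tested. The biological coefficient of variation was 6.49%. Log2 fold changes are given with their standard error, and CPM with the SD over 3 libraries. On simulated counts of 17525 genes for 2i against serum in 3B3-3l, 96% of 200 changed genes were recovered with 9 false calls. The changed genes were drawn from well-expressed genes and were a small share of all, whereas most genes were called in the data. The simulation therefore does not measure the false calls among the genes called here. The p values measure the spread between the labelled replicates. Libraries of a group differed by more than sampling noise, so none was counted as a duplicate. Alternatives were DESeq2 size factors, the DESeq2 1.42.0 Wald test, no filter, at least 10 counts in every library, only the 6 libraries of 3B3-3l, the replicate number as a block, transcript length offsets, a 2-fold threshold and leaving out each library; counts without genes of chromosomes 6 and 8 were chosen after the data were seen.

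The members, the 30 gene lists and the rules were chosen with earlier results of these data known. The starting rule for each list was to name called members averaging 5 CPM or more, up to 4 per direction. Dnmt3b, Dnmt3l, Dnmt3a, Dnmt1, Uhrf1, Prdm14 and Esrrb and some unchanged members were named too. The text does not keep to this rule in every list. More than 4 genes that fell are named for ERK feedback and for glycolysis. In glycolysis Pfkl (-1.37) and Ldhb (-1.34) are not named, although they fell further than Ldha, Pgk1 and Pdk1. The named genes are thus examples. Over all genes the 10 with the highest and lowest change, with a mean of at least 10 CPM and no overlap between the media, and the 8 with the highest and lowest difference between lines, averaging 10 CPM or more in 1 group and 3 counts or more per library in every group, are named; some genes that these rules pick are not reported here. Genes around Dmgdh and markers at 0 were named after their values were seen. No set test was run. Lists share genes.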

Additional observations from a re-analysis of the deposited data

Results flagged for a closer look

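The interaction test in edgeR called the 2i effect different between 3B3-3l and J1 (adjusted p under 0.05) for 136 of 187 named genes, with the effect higher in 3B3-3l for 58 and lower for 78. Lefty2 and genes named only as markers are outside these 187. Over all genes tested, 34.7% were called. The named genes were chosen in part for this difference. The values are the log2 fold change in 3B3-3l minus that in J1.

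Among methylation genes the 2i effect in 3B3-3l was higher for Dnmt3b (3.29), Dnmt3l (1.69) and Zbtb38 (0.63) and lower for Dnmt3a (-0.77), Tet3 (-1.59) and Dppa3 (-0.97). Among pluripotency genes the 2i effect in 3B3-3l was higher for Prdm14 (0.63), Esrrb (0.31), Nr5a2 (0.38), Klf2 (0.63), Zfp42 (0.75), Dppa4 (0.35), Sox2 (0.39), Lin28a (0.38), Otx2 (2.11) and Foxd3 (1.95) and lower for Nanog (-0.26), Tbx3 (-0.25), Lin28b (-0.33), Pou3f1 (-0.98) and Fgf5 (-2.44). Among ERK and immediate early genes the 2i effect in 3B3-3l was higher for Spry4 (0.32), Dusp6 (0.88), Spry2 (0.69), Etv5 (0.68) and Myc (0.96) and lower for Dusp5 (-0.76), Ier3 (-1.51), Spry1 (-0.63), Egr1 (-1.84) and Jun (-1.25). Among Wnt, caudal and Hox genes the 2i effect in 3B3-3l was higher for Notum (1.45) and Lef1 (1.21) and lower for Axin2 (-0.50), Sp5 (-0.86), T (-1.48), Ascl2 (-1.70), Nkx1-2 (-1.58), Hoxc13 (-0.78) and Fgf17 (-0.52). Among LIF, BMP and Nodal genes the 2i effect in 3B3-3l was higher for Bmp4 (1.16), Lefty1 (0.40) and Nodal (0.65) and lower for Socs3 (-0.52), Gfpt2 (-0.73), Id2 (-0.70), Gata2 (-2.48), Skil (-0.63) and Eomes (-0.91). Among contractile, YAP and matrix genes the 2i effect in 3B3-3l was higher for Tagln (1.31), Cyr61 (0.92), Ctgf (1.02), Col18a1 (0.39), Nid1 (0.53), Cdh1 (0.53) and Ddr2 (1.78) and lower for Acta1 (-2.15), Vim (-0.74), Col1a1 (-0.84), Col4a1 (-0.40) and Col4a2 (-0.54).

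Among germline genes the 2i effect in 3B3-3l was higher for Fkbp6 (0.52), Tex15 (2.03) and Syce1 (0.58) and lower for Mael (-0.50), Smc1b (-1.99), Taf9b (-2.09), Piwil2 (-0.58) and Tuba3a (-1.39). Among imprinted genes the 2i effect in 3B3-3l was higher for Dio3 (2.60) and lower for H19 (-2.12), Igf2 (-0.83), Magel2 (-1.57), Peg10 (-0.70), Phlda2 (-2.62), Peg3 (-1.52), Meg3 (-0.80), Mest (-1.40) and Plagl1 (-1.12). Among polycomb genes the 2i effect in 3B3-3l was higher for Jarid2 (0.36) and lower for Phf19 (-0.44), Phc1 (-0.38), Ezh2 (-0.71) and Pcgf1 (-0.63). Among glycolysis and hypoxia response genes the 2i effect in 3B3-3l was lower for Slc16a3 (-1.92), Slc2a1 (-1.62), Ldha (-0.45), Pgk1 (-0.60), Pdk1 (-0.63), Tpi1 (-1.40), Hk1 (-0.41), Hk2 (-1.02), Slc2a3 (-1.34), Bnip3 (-2.65), Ndufa4l2 (-3.18), Loxl2 (-2.84), Egln3 (-2.43), Ddit4 (-1.55) and Vegfa (-1.32). Among other metabolic genes the 2i effect in 3B3-3l was higher for Uqcrb (0.37), Cox7a2 (0.39), Dmgdh (2.60), Bhmt (1.92), Bhmt2 (1.83), Tdh (0.82), Gcat (0.44) and Gldc (0.66). Among cell cycle and stress genes the 2i effect in 3B3-3l was higher for Ccnd2 (0.89), Cdkn2a (0.47), Mycn (0.31), Mt1 (0.49) and Mt2 (0.61) and lower for Gadd45g (-2.39) and Asns (-0.69). Among lineage and 2-cell-like genes the 2i effect in 3B3-3l was higher for Ly6a (2.67), Calcoco2 (1.44) and Zscan4f (2.76) and lower for Krt18 (-0.998) and Krt19 (-1.54). Among genes of no list the 2i effect in 3B3-3l was higher for Gm5096 (2.45), Crxos1 (0.57), Il34 (1.30), Slc1a1 (2.65), Spic (2.34), Susd1 (2.31) and Jmy (0.41) and lower for Dll1 (-3.87), Pkdcc (-2.37), Gm364 (-5.45), Gt(ROSA)26Sor (-3.79), Usp26 (-3.42), Sfi1 (-2.99), Cacna1h (-2.92), Slc11a1 (-2.90), Homer1 (-0.45) and Lhfpl2 (-0.95).

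Of these genes, Tet3, Dppa3, Nanog, Gata2, Tuba3a, Peg10, Mest, Phc1, Ezh2, Pcgf1, Tpi1, Hk2, Slc2a3, Ccnd2, Asns and Gt(ROSA)26Sor lie on chromosome 6 and Klf2, Zfp42, Acta1, Col4a1, Col4a2, Cdh1, Tex15, Mt1, Mt2 and Il34 on chromosome 8, where the median difference over all genes tested was -0.44 and 0.23. The value of H19 rests on 2 counts in the 2i libraries of 3B3-3l and is no measure of size. Those of Fgf5, Acta1, Dll1, Magel2 and Pkdcc rest on at most 5 counts in each of these libraries, so that their size is imprecise. With a single library left out, these differences were not called in at least 1 case, and the values in such cases were Tbx3 (-0.22 to -0.21), Pou3f1 (-0.72 without J1 2i replicate 3), Fgf5 (-2.37 to -1.29), Id2 (-0.54 to -0.51), Acta1 (-2.17 to -1.40), Mael (-0.54 to -0.39), H19 (-2.15 to -1.60), Magel2 (-1.35 to -1.19) and Phf19 (-0.40 without J1 2i replicate 1). With transcript length offsets Dnmt3a (-0.14), Col1a1 (-0.51), Col4a2 (-0.29), H19 (-1.99), Igf2 (-0.55), Crxos1 (0.30) and Homer1 (-0.29) were not called. With the replicate block Fgf5 (-2.45), Acta1 (-2.15) and H19 (-2.12) were not called, and H19 was not called with DESeq2 or with no filter. In the other direction, Tet1, Tet2, Pou5f1, Utf1, Fgf15, Junb, Atf3, Cdx1, Rpl10l, Tm7sf2, Nqo1, Fndc3c1 and Ak4 were not called but were under at least 1 alternative. No explanation was tested for any of these differences.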

How the results depend on the processing

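With a threshold of 2-fold in place of any change, 2968 genes were called in 3B3-3l, 847 higher and 2121 lower. Under the other alternatives the counts of genes called in 3B3-3l and for the difference between lines stayed within 1.5 times their values. Without 1 library, 10929 to 11446 genes were called in 3B3-3l (5219 to 5715 higher, 5496 to 5731 lower) and 5225 to 6857 for the difference (2183 to 3384 higher, 2830 to 3473 lower). With the replicate number as a block, 11381 genes were called in 3B3-3l (5717 higher, 5664 lower) and 5620 for the difference (2659 higher, 2961 lower). Same-numbered libraries of 3B3-3l did not deviate together (correlations of -0.084, -0.010 and 0.017), so that the numbers do not pair the media.

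Medians of at least 0.2 in size changed sign in 5 lists. With at least 10 counts in every library they were -0.032 for Wnt targets, 0.049 for BMP and Id genes and 0.077 for 2-cell-like genes, an alternative that leaves out genes at the floor in 1 medium. With no filter the Nodal list stood at -0.13, and with only the 6 libraries of 3B3-3l the caudal list stood at -0.61; both keep other sets of genes. Among the same 187 named genes, calls in 3B3-3l changed for Tet1, Klf2, Pou5f1, Vegfa, Jmy and Lhfpl2, and for no other of them under these alternatives. Vegfa was not called with length offsets (-0.13). Jmy (-0.19) and Lhfpl2 (0.35) were not called with the replicate block, nor Lhfpl2 with at least 10 counts in every library (0.29). The call of Klf2 was also lost with at least 10 counts in every library (0.13). Genes near the floor of 3 counts, such as H19, Car4 and Fgf5 in 2i, have no precise fold change. Intervals and floors cover counting error only.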
